A study of Sus scrofa with 6 samples.

Results

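Complement is a set of blood and surface proteins that marks cells and particles for removal and, in its last step, opens pores in membranes. It is started by recognition molecules that carry proteases (C1r and C1s in the classical route, the MASPs in the lectin route) or by factor B and factor D in the alternative route, and all routes meet at C3. Many cells also make inhibitors that stop the cascade in fluid or on their own surface, and fibroblasts are known to secrete several of the early components.

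The genes described here are 9 of the 18007 genes in an RNA-seq table of porcine cells: *C1R*, *C1S*, *MASP1*, *C3*, *CFB* and *CFD*, which encode activating proteins, and *SERPING1*, *CD46* and *CD55*, which encode inhibitors. They were chosen by name, with their difference between the cell groups already known, so that difference is given below as a description and carries no test. Of the 9, 6 carry their symbol in the table. *CFB* was listed by identifier and matched through a table of gene names, and *CD46* and *CD55* were matched by position to the RefSeq annotation of the same build, Sscrofa11.1.

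The cells were porcine embryonic fibroblasts (PEF), grown from the ear tips of 90-day embryos of a Longwhite boar (as the labels spell it, Large White in the study's methods) and a Meishan sow, and porcine induced pluripotent stem cells (piPSC) made from them. Oct4, Sox2, Klf4 and c-Myc were brought into the piPSCs on doxycycline-inducible lentiviral vectors together with the M2rtTA activator, and colonies were picked and grown on mouse feeder cells. Each group had 3 libraries, PEF5, PEF7 and PEF8 against piPSC5, piPSC7 and piPSC8, where a shared number is a shared line of origin. Each line was sequenced as 1 library per state, so the spread given is that between lines together with that between libraries. Reprogramming and the change of culture conditions came together and cannot be told apart.

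The values are FPKM, fragments scaled to the length of the gene model and to the size of the library. Library totals of 11010629 to 17836510 fragments, and all fragment numbers below, were inferred from these values. All 10 fibroblast markers fell in piPSCs (limma, adjusted p under 0.05 and at least 2-fold), and their summed FPKM went from 5920 to 8390 in PEFs to 233 to 428 in piPSCs. The summed FPKM of pluripotency markers (8 of 10 in the table, 0 of 2 tested rose) was 0.0703 to 0.202 in PEFs and 3.12 to 9.24 in piPSCs. The main contributors were *SOX2* (3.01, 2.49 and 0.129 FPKM in the piPSC lines) and *LIN28B* (2.51, 0.281 and 8.90), and neither passed (limma adjusted p 0.0626 and 0.0667). *POU5F1*, *NANOG*, *SALL4*, *ESRRB*, *CDH1* and *EPCAM* measured at most 0.155 FPKM in any library. Whether *SOX2* fragments came from the delivered vector was not tested. The summed FPKM of macrophage and leukocyte markers (8 of 9 in the table, 1 of 3 tested fell) was 13.4 to 25.4 in PEFs and 3.63 to 4.21 in piPSCs, and *CD14* made up most of the difference (9.20, 21.9 and 13.1 FPKM in the PEF lines, 0.239, 0.110 and 0.238 in the piPSC lines). Endothelial markers summed to 2.87 to 9.42 FPKM in PEFs and 0.0382 to 0.434 in piPSCs, chondrocyte markers to 0.528 to 4.56 and 0.168 to 0.23, and keratinocyte and hepatocyte markers to at most 3.85 in any library. *CD163*, a macrophage marker, and *CDH5* and *KDR*, endothelial markers, measured at most 0.0197 FPKM in any library. Other listed markers were higher: *ERG* measured 7.98, 8.62 and 0.164 FPKM and *PECAM1* 0.566, 0.5 and 2.57 in the PEF lines, and *TYROBP* 0.401, 0.856 and 1.30. *SPI1* measured 2.53, 1.62 and 3.49 FPKM in the PEF lines and 1.20, 2.40 and 0.947 in the piPSC lines, and *CD68* 1.11, 0.786 and 2.29 and 1.98, 0.804 and 2.71. The part of these other cell types in the values below was not tested. Y-linked genes summed to 39.9 FPKM in PEF8 and 60.8 in piPSC8, and to at most 0.014 in the other 4 libraries, while the study describes all 3 lines as male.

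Of the 9 genes, 7 were lower in every piPSC library than in any PEF library, 1 (*CD55*) was higher in every one, and 1 (*SERPING1*) overlapped between the groups. Among the 12428 genes with a mean of at least 0.5 FPKM, which include all 9, 26.8% were lower and 37.3% higher without overlap. Taken line by line, 6 were at least 2-fold lower in each of the 3 lines, namely the 6 activating genes, and *CD55* was at least 2-fold higher in each. The same held for 11.9% (lower) and 12.8% (higher) of the 12428 genes. These counts follow from how the genes were chosen.

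**Figure D1:**
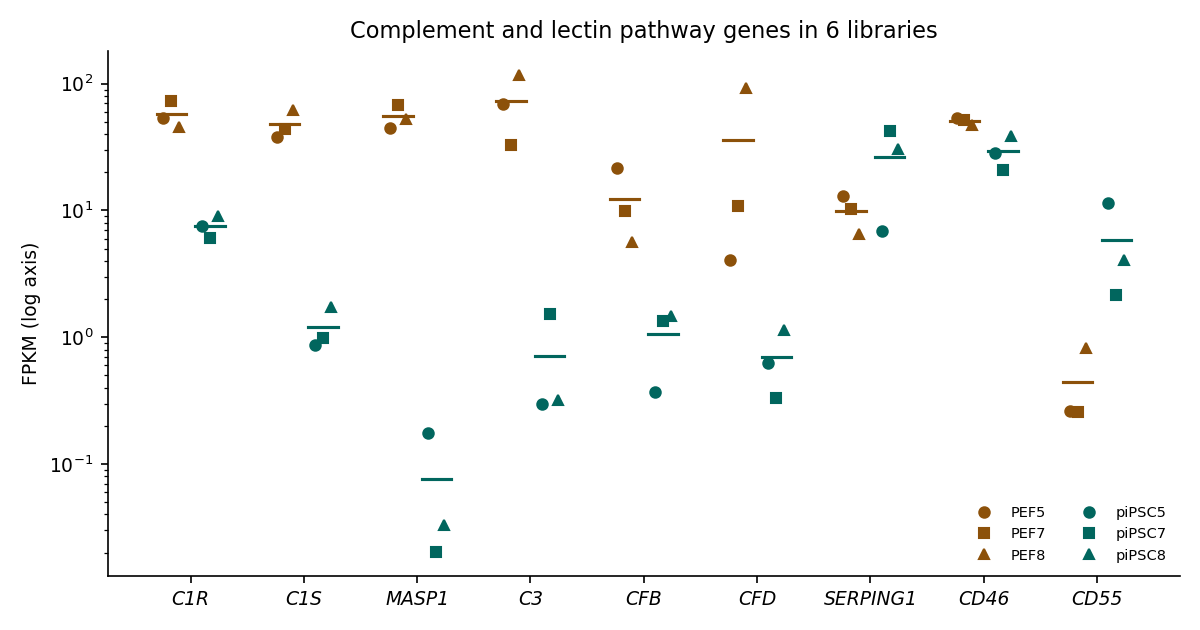
FPKM of the 9 genes on a log axis in the 3 PEF libraries (brown) and the 3 piPSC libraries (green), with 1 point per library and the group mean as a line. The 6 activating genes on the left lie lower in all piPSC libraries, *SERPING1* overlaps between groups, and *CD55* is below 1 FPKM in all PEFs and above 2 in all piPSCs.

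*C1R* and *C1S* encode the paired serine proteases of the first complement component. *C1R* (ENSSSCG00000000675, chr5:63644321-63681418, plus strand) measured 53.4, 72.9 and 45.9 FPKM in PEF5, PEF7 and PEF8 and 7.54, 6.04 and 8.97 in piPSC5, piPSC7 and piPSC8. All 3 piPSC values were well under the lowest PEF value, and the means were 57.4 ± 13.9 and 7.52 ± 1.47 (SD, n = 3). The log2 fold change, taken throughout on log2(FPKM + 1), was -2.77 (SE 0.23).

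*C1S* (ENSSSCG00000039847, chr5:63667706-63708214, minus strand) measured 38.1, 43.8 and 62.5 FPKM in PEFs and 0.867, 0.984 and 1.74 in piPSCs. It was the most even of the 9 between lines, with a PEF value 43.9, 44.5 and 35.9 times the piPSC value in lines 5, 7 and 8. Its log2 fold change was -4.47 (SE 0.25), and the piPSC values rested on 77, 69 and 113 fragments.

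The measured ratio of the protease pair differed between the groups. The FPKM of *C1R* divided by that of *C1S* was 1.40, 1.66 and 0.735 in the PEF lines and 8.69, 6.14 and 5.16 in the piPSC lines, with no overlap between the groups. The 2 gene models share 13713 bases on opposite strands, the library kit does not mark strand, and RefSeq has the 2 genes apart. The *C1R* model covers most of the RefSeq span of *C1S* (63670309-63681466). An unknown part of each value could thus belong to the other gene, and the ratio may not compare the 2 genes. How many fragments were shared was not tested.

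*MASP1* encodes proteases of the lectin route (MASP-1 and MASP-3) and a shorter protein without protease activity, MAp44, which 1 value per gene does not separate. On its 3′ side the counted model stops at 124955030, while the RefSeq gene reaches 124938469. Which exons of these products the value leaves out was not tested. *MASP1* (ENSSSCG00000011806, chr13:124955030-125028339, minus strand) measured 45.1, 68.2 and 52.9 FPKM in PEFs and 0.176, 0.0203 and 0.0329 in piPSCs. In piPSC7 and piPSC8 this was 2 and 3 fragments, against 9458 and 6639 in the PEFs of the same lines, and in piPSC5 it was 22 against 6670.

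Its log2 fold change of -5.69 (SE 0.21) was the largest of the 9 and stood at place 72 from the lowest among 12428 genes. On the linear scale, which the added 1 FPKM does not compress, line 5 differed 256-fold (95% exact interval of fragment counting 169 to 408). The corresponding fold was 3360 (931 to 27800) in line 7 and 1610 (550 to 7800) in line 8. These intervals cover counting error only, and for lines 7 and 8 they are wide because so few fragments remained.

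*C3* encodes the protein on which all routes converge. *C3* (ENSSSCG00000013551, chr2:72431163-72471564, plus strand) measured 68.6, 32.8 and 118 FPKM in PEFs and 0.296, 1.53 and 0.321 in piPSCs. It had the highest PEF mean of the 9 (73.1 ± 42.7) and a piPSC mean of 0.716 ± 0.706, with a log2 fold change of -5.33 (SE 0.50). Line 7 had both the lowest PEF and the highest piPSC value, so that the fold difference was 21.4 there against 232 in line 5 and 367 in line 8.

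*CFB* encodes factor B, the protease precursor of the alternative route, and *CFD* encodes factor D, which cleaves it. *CFB* (ENSSSCG00000024914, chr7:24033587-24041617, plus strand) measured 21.6, 9.96 and 5.63 FPKM in PEFs and 0.373, 1.35 and 1.47 in piPSCs. Line 5 was highest as PEF and lowest as piPSC, and the fold difference was 57.8 there, 7.39 in line 7 and 3.82 in line 8. The log2 fold change was -2.56 (SE 0.48).

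*CFD* (ENSSSCG00000013418, chr2:77509860-77512207, minus strand) measured 4.07, 10.8 and 92.2 FPKM in PEFs and 0.630, 0.332 and 1.15 in piPSCs. The order of the PEF lines was the reverse of that for *CFB*, and the FPKM of *CFB* divided by that of *CFD* was 5.30, 0.925 and 0.0611 in PEF5, PEF7 and PEF8. The size of the difference rested on PEF8, as the log2 fold change was -3.41 (SE 1.00) with it and -2.21 without it.

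The models of *CFB* and *CFD* overlap other genes as well. *CFB* shares 534 bases with *C2*, which encodes the classical route's counterpart of factor B, and 1250 bases with *NELFE* on the other strand, a gene at 16.7 to 28.1 FPKM in all 6 libraries. *CFD* lies inside *MED16*, on the other strand, at 3.74 to 6.12 FPKM, and inside *ELANE* on its own strand, which measured at most 1.09 FPKM. The part of these overlaps in the *CFB* and *CFD* values was not tested.

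*SERPING1* encodes the C1 inhibitor, a secreted serpin that inactivates C1r, C1s and MASP-1. *SERPING1* (ENSSSCG00000013181, chr2:13322843-13338996, minus strand) measured 13.1, 10.3 and 6.50 FPKM in PEFs and 6.85, 42.4 and 30.5 in piPSCs. It was lower in piPSC5 than in PEF5 (0.524 times) and higher in the other lines (4.12 times in line 7, 4.70 times in line 8). The log2 fold change was 1.06 (SE 0.64), and leaving out single libraries gave 0.57 (without piPSC7) to 1.80 (without piPSC5).

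*CD46* encodes membrane cofactor protein, which helps factor I cleave C3b on the cell surface. *CD46* (ENSSSCG00000038506, chr9:135025441-135078907, minus strand) measured 53.4, 51.8 and 47.4 FPKM in PEFs and 28.2, 20.8 and 38.6 in piPSCs. The groups did not overlap, but the distance was small, with a log2 fold change of -0.82 (SE 0.23) and log2 ratios of -0.90, -1.28 and -0.29 in lines 5, 7 and 8. A pair of further rows described as membrane cofactor protein lies elsewhere on chromosome 9, with 0.484 to 3.06 FPKM in one and at most 0.138 in the other, and fragments could be split between such copies.

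*CD55* encodes decay-accelerating factor, which takes apart the C3-cleaving enzymes on the surface. The length inferred for its counted model was 2579 bases, beside 9570 in the RefSeq exons, and which exons it leaves out was not tested. *CD55* (ENSSSCG00000015664, chr9:67933081-67959721, plus strand) measured 0.261, 0.255 and 0.819 FPKM in PEFs, or 12, 11 and 32 fragments, and 11.5, 2.15 and 4.09 in piPSCs, or 445, 66 and 116 fragments. It was the one gene of the 9 that was higher in every piPSC library. The fold was 43.9 in line 5 (95% exact interval 24.9 to 85.7), 8.43 in line 7 (4.42 to 17.7) and 4.99 in line 8 (3.35 to 7.62), and the log2 fold change was 2.04 (SE 0.51).

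**Figure D2:**
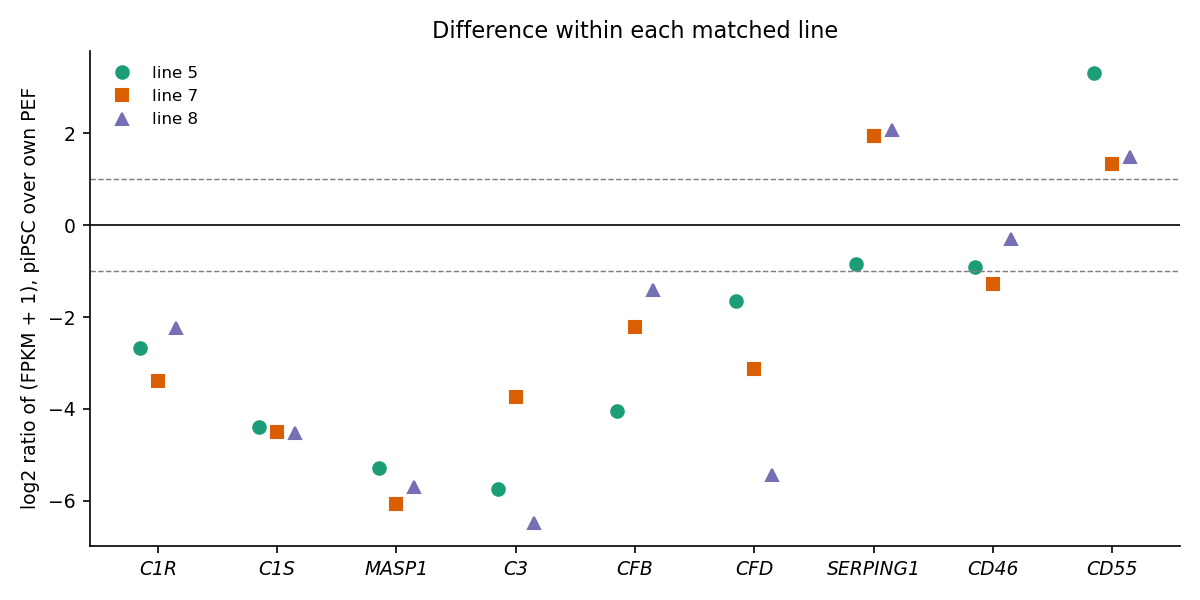
Log2 ratio of (FPKM + 1) of each piPSC line over the PEF line it came from, for the 9 genes, with 1 point per line and dashed lines at a 2-fold difference. The points of *C1S* lie closest together, the added 1 FPKM narrows the spread of *MASP1*, *C3*, *CFB* and *CFD* are spread, and *SERPING1* is at -0.84 in line 5 against 1.94 and 2.07 in lines 7 and 8.

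Ranked by mean FPKM, the order in PEFs was *C3*, *C1R*, *MASP1*, *CD46*, *C1S*, *CFD*, *CFB*, *SERPING1* and *CD55*. Each of the first 8 differed from its neighbour by less than the larger SD of the pair, while *CD55* at 0.445 ± 0.324 stood under *SERPING1* at 9.95 ± 3.29. In piPSCs the order was *CD46*, *SERPING1*, *C1R*, *CD55*, *C1S*, *CFB*, *C3*, *CFD* and *MASP1*, so that 2 inhibitors headed it and *MASP1*, at rank 3 in PEFs, was last. *CD46* and *SERPING1* (29.2 ± 8.93 and 26.6 ± 18.1) did not differ beyond their spread, nor did *C1S*, *CFB*, *C3* and *CFD*, all with means between 0.703 and 1.20.

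Grouped by their known action, the 6 activating genes summed to 231, 238 and 377 FPKM in the PEF lines and to 9.88, 10.3 and 13.7 in the piPSC lines. The means were 282 ± 82.3 and 11.3 ± 2.09, a ratio of 25.0. The 3 inhibitor genes summed to 66.7, 62.3 and 54.7 FPKM in PEFs and to 46.5, 65.3 and 73.2 in piPSCs, and the groups overlapped, with means of 61.2 ± 6.07 and 61.7 ± 13.7.

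*CD46* made up most of the inhibitor sum in every PEF library and in piPSC5 and piPSC8, and *SERPING1* was above *CD46* in piPSC7 alone. Activating over inhibitor FPKM was 3.46, 3.83 and 6.89 in PEFs and 0.212, 0.157 and 0.187 in piPSCs, a quotient within each library that a scaling factor between libraries cannot move. The quotient covers these genes only and depends on which inhibitors are counted. Outside them, *CLU*, *CD59* and *VTN* were lower in piPSCs, while *CFI* and *SUSD4* had a higher mean there. *CLU* alone measured 993, 1340 and 239 FPKM in the PEF lines and 68.3, 73.4 and 46.8 in the piPSC lines, more than the inhibitor sum in every PEF library. The mRNA levels say nothing of secreted or surface protein, and in bulk cultures fewer expressing cells and less RNA per cell cannot be told apart.

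**Figure D3:**
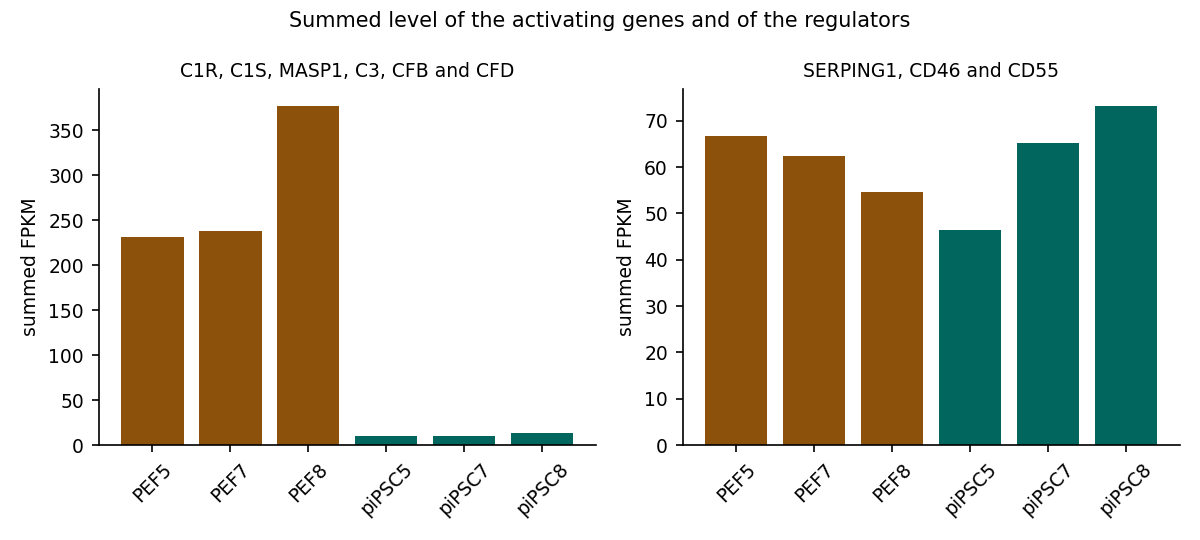
Summed FPKM per library of the 6 activating genes (left) and of the 3 inhibitor genes (right), each axis starting at 0 and on its own scale, PEFs in brown and piPSCs in green. The left sum is 231 to 377 in PEFs and 9.88 to 13.7 in piPSCs, while the right sum is 46.5 to 73.2 over all 6 libraries.

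The median log2 fold change of the 9 genes was -2.77, beside 0.20 for all 12428 genes. Rescaling the libraries to their median ratio moved the median of all genes to -0.01 and that of the 9 to -3.01, and none of the scalings tried turned the direction of any of the 9.

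Windows of 250 bases before the RefSeq start of each gene (Sscrofa11.1) are shown for 4 of the 9: *CFB*, *SERPING1* and *CD55*, which hold more than 1 match to the searched motifs, and *MASP1*, which differed most and holds none. The gene models behind the FPKM values start elsewhere. Of the 9 windows, those of *CFB*, *C3* and *C1S* lie inside the gene's own counted model, and those of *SERPING1* and *CFD* partly so. The *CFB* window also lies inside *C2*. Capitals mark GGGA and CC around any 4 bases (NF-kB) in *CFB* and *SERPING1*, and TTCNNNGAA (STAT) and GGAATG (TEAD) in *SERPING1* and *CD55*, each read on both strands, 5′ to 3′ along the gene's strand.
CFB, chr7:24033827-24034076, plus strand: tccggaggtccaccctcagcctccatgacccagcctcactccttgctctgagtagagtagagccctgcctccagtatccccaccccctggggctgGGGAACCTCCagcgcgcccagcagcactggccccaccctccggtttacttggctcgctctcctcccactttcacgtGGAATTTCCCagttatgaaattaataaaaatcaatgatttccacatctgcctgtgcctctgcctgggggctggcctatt
SERPING1, chr2:13338827-13339076, minus strand: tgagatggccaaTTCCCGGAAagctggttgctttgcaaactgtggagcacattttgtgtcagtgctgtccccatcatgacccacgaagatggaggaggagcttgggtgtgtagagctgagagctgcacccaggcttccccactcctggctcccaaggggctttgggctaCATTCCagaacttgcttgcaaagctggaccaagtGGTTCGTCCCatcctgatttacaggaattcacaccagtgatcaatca
CD55, chr9:67932819-67933068, plus strand: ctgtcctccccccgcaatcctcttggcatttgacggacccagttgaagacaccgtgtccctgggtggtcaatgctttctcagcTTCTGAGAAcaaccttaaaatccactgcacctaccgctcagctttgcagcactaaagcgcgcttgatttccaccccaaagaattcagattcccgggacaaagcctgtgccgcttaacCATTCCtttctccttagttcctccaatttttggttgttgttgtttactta
MASP1, chr13:125028441-125028690, minus strand: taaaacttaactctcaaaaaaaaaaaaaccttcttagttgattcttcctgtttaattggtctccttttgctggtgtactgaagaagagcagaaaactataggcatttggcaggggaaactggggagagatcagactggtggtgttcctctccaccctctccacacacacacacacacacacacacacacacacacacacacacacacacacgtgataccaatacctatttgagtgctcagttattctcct

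The NF-kB letters occurred in 3 of the 9 windows (*CFB* at -155 and -79, *CFD* at -34, *SERPING1* at -47, counted from the start to the first base of the match), beside 26.4% of 19556 promoters. The STAT letters occurred in *CD55* (at -167) and *SERPING1* (at -238), 2 of 9 beside 6.1% of promoters, and the TEAD letters in the same 2 genes (at -50 and -81) beside 10.3%. Those are the 2 genes of the 9 with a higher mean in piPSCs, though *SERPING1* overlapped between the groups. A link between these letters and the direction was not tested. The AP-1 letters TGANTCA, the interferon response letters (TTTC and TTTC around any 2 bases) and TATAAA occurred in none of the 9, beside 5.3%, 3.0% and 9.8% of promoters. The GC content was between 42.8% (*MASP1*) and 74.0% (*CD46*), beside a median of 57.6% over all promoters. A match is a run of letters and not a shown binding site.

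The genes nearest to the 9 in pattern were found by the root mean square difference of centred log2(FPKM + 1) over the 6 libraries. *CD46* had the closest, *ECE2*, at 0.092, and *C1R* was closest to *RASD1* at 0.140. *C3* was closest to *NID2* (0.241), which measured 86.2, 34.2 and 132 FPKM in PEFs and thus shared the low PEF7 and high PEF8 values. *CFD* was closest to *SULT1A3* (0.409), at 8.62, 18.1 and 88.5 FPKM in PEFs. *MASP1* was closest to *PXDC1* (0.266), *CFB* to *IGSF8* (0.329), *SERPING1* to *NOD1* (0.287), *CD55* to *KCNJ3* (0.292), and *C1S*, after a gene whose symbol was altered in the table, to *DSE* (0.214).

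Of 51 other complement genes listed by function, 36 were in the table and 14 passed the filter on low values. Among these 14, 8 fell and 2 rose in piPSCs (limma, adjusted p under 0.05 and at least 2-fold, which 16.7% and 20.2% of all 12428 genes met in the lower and higher direction). Their median log2 fold change was -1.31, and the falls and rises of single genes below are also log2 fold changes. The filter took the mean of all 6 libraries, so a gene could pass through 1 group alone. Of the genes that fell, *PTX3*, *C2*, *VTN* and *C5AR2* had piPSC means of 0.355, 0.0096, 0.0525 and 0 FPKM and passed through their PEF values. The 2 that rose, *MASP2* and *C1QBP*, had PEF means of 0.627 and 12.4 FPKM. The early proteases next to *C1R*, *C1S* and *MASP1* moved both ways: *MASP2*, the other lectin protease, rose from 0.627 ± 0.171 to 3.78 ± 1.01 FPKM (limma log2 fold change 1.54, adjusted p 0.00295), against the lower *MASP1*.

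*C1RL*, a relative of *C1R* beside it on the chromosome, fell by 1.22 (limma adjusted p 0.0156). *C2* was at 1.36, 0.656 and 6.51 FPKM in PEFs and at 0, 0.0288 and 0 in piPSCs, and fell by 1.61 (limma adjusted p 0.0461, and 0.0561 when lines were paired by a replicate block). *COLEC12* and *PTX3*, which encode recognition molecules, fell by 3.07 and 3.05 (limma adjusted p 0.00121 and 0.0074). C4A, C5 and the 3 terminal-pathway genes in the table (*C6*, *C7*, *C9*) were under the filter, with at most 0.5 FPKM in any library.

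The inhibitors outside the 9 did not move as one. *CD59*, which blocks the membrane pore, measured 55.1, 69.3 and 56.2 FPKM in PEFs and 1.47, 21.8 and 4.84 in piPSCs and fell by 3.14 (limma adjusted p 0.013), unlike *CD55*. *CLU* and *VTN*, fluid inhibitors of the pore, fell by 3.45 and 1.40 (limma adjusted p 0.00486 and 0.00369). *CFI*, the protease that *CD46* assists, measured 1.43, 3.07 and 0.341 FPKM in PEFs and 90.0, 95.5 and 1.88 in piPSCs. Its log2 fold change of 3.63 did not pass in the unpaired limma fit (adjusted p 0.0614), passed when lines were paired by a block (0.0277), and was 5.31 without piPSC8 (0.00118). It was 2.82 and 2.77 without piPSC5 and piPSC7 (limma adjusted p 0.173 and 0.161), and with voom the adjusted p was 0.246.

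*SUSD4*, a surface inhibitor, was likewise low in piPSC8 beside the other piPSC lines, with 0.608, 1.60 and 1.34 FPKM in PEFs and 20.6, 27.8 and 0.919 in piPSCs (limma log2 fold change 2.31, adjusted p 0.0909, 3.54 with 0.00103 without piPSC8, and 1.80 and 1.59 with 0.237 and 0.23 without piPSC5 and piPSC7). Among receptors, *C1QBP* rose by 2.35 (limma adjusted p 0.0286), and by 1.49 without PEF5, which at 2.05 FPKM was far under PEF7 and PEF8 at 20.6 and 14.6. *C5AR2* had 0 fragments in all piPSCs against 2.76, 1.18 and 13.4 FPKM in PEFs, or 25, 10 and 103 fragments (limma adjusted p 0.0257). It was at least 35.1-fold lower with fragments pooled over lines and 3 fragments over the piPSC group taken as the floor. PEF8 held most of the pooled fragments, so this is not a bound for each line. Leaving out single libraries ended the calls of *C1RL*, *C2*, *C5AR2* and *C1QBP* (limma adjusted p up to 0.0551, 0.107, 0.0689 and 0.0729).

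**Figure D4:**
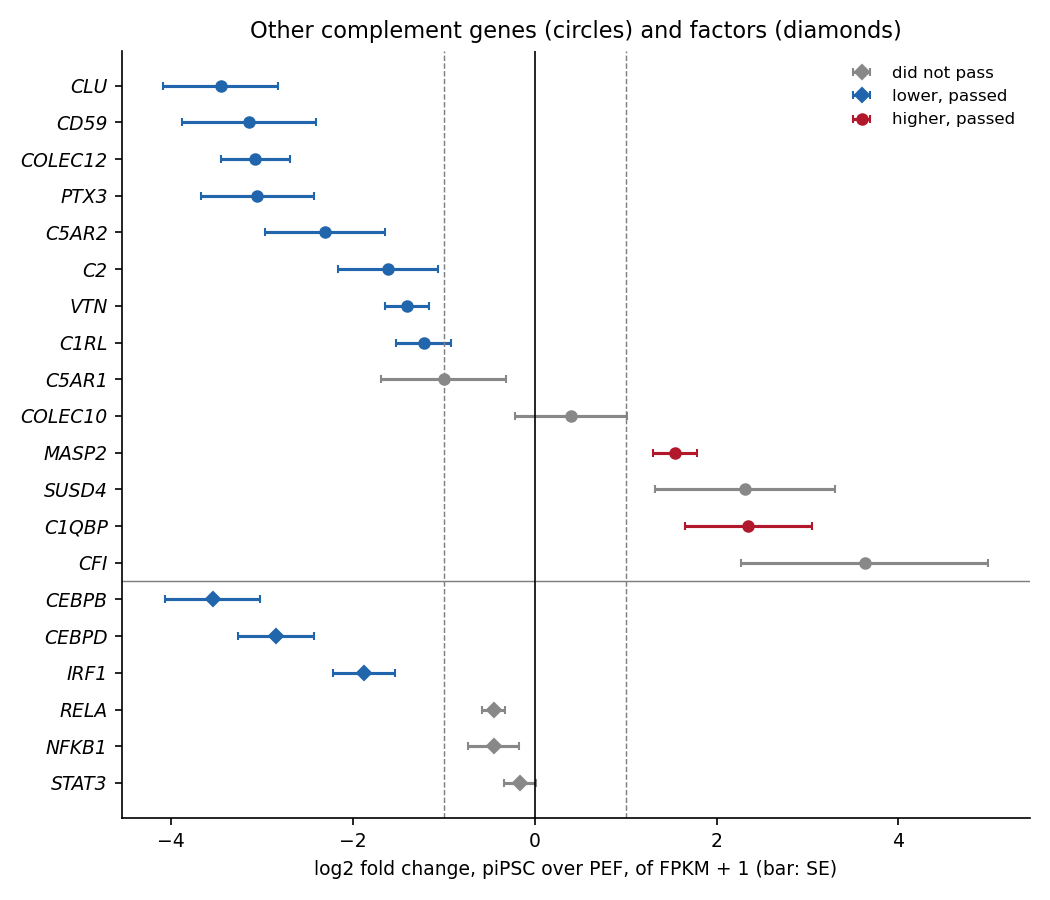
Log2 fold change with its SE (limma, piPSC over PEF, on FPKM + 1) of the 14 tested complement genes outside the 9 (circles) and of 6 tested transcription factors (diamonds), coloured by whether they passed the test in either direction, with dashed lines at 2-fold. Of the complement genes 8 passed lower and 2 higher, and *CFI* has the largest positive value and the widest SE without passing.

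Of 10 transcription factors known to act on complement promoters, 7 passed the filter, 3 of which fell and 0 rose (beside 16.7% and 20.2% of all 12428 genes, limma, and 0 also at an unadjusted p under 0.05 and with voom). *CEBPB* measured 82.1, 149 and 195 FPKM in PEFs and 5.92, 22.8 and 8.49 in piPSCs (limma log2 fold change -3.54, adjusted p 0.00223). *CEBPD* and *IRF1* fell by 2.84 and 1.88 (limma adjusted p 0.00229 and 0.00463). *RELA* differed by less than 2-fold (-0.45, limma adjusted p 0.0299, and 0.0616 with the replicate block), and *STAT3* and *NFKB1* did not pass (limma adjusted p 0.465 and 0.217).

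The 9 genes have 15 nearest neighbours in the table, of which 8 passed the filter, 3 fell and 0 rose (beside 16.7% and 20.2% of all 12428 genes, limma, and 0 also at an unadjusted p under 0.05 and with voom). Beside *MASP1*, *RTP4* fell by 3.04 (limma adjusted p 0.00819), and the others were *C1RL* beside *C1R* and *C1S* and *C2* beside *CFB*. *RTP4* and *C2* passed the filter through their PEF values, with piPSC means of 0.0344 and 0.0096 FPKM. *GPR108* beside *C3* and *LPCAT3* beside *C1S* differed by less than 2-fold (-0.77 and -0.84, limma adjusted p 0.0158 and 0.0146). *NELFE* and *MED16*, which overlap *CFB* and *CFD*, were at -0.10 and 0.04 (limma adjusted p 0.73 and 0.893), beside -2.56 and -3.41 for *CFB* and *CFD*, though their direction changed with the scaling or with 1 library left out.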

How the data were processed

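RNA-seq of 3 PEF and 3 piPSC lines was used. The deposited table gives FPKM per gene, normalized by the authors, from poly-A libraries read as 150 bp pairs. The submitters' processing notes name HISAT2 2.1.0, Bowtie2 2.2.3, HTSeq 0.6.0 and Sscrofa11.1, and replicates were not pooled. Libraries were grouped by title. limma 3.58.1 in R 4.3.3 was fitted, unpaired and with an intensity trend, on log2(FPKM + 1) of the 12428 genes with a mean of at least 0.5 FPKM, two-sided, with Benjamini-Hochberg adjustment over all of them. A call needed an adjusted p under 0.05 and 2-fold. With 3 against 3 an exact permutation test cannot go below 0.1. The p-values set the difference between groups against the spread within groups, with variances moderated over all tested genes. With 1 library per line and state, that spread holds differences between lines and between libraries together.

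Library totals and gene lengths made whole fragments of the FPKM values of 18007 genes (100%), and these gave the exact binomial intervals (95%) and a voom fit as an alternative. On simulated data limma called 169 of 200 changed genes among 12428, and 14 others. The limma simulation gave all genes the same spread, had no differences between lines and changed only well-covered genes. The rates of its calls thus do not carry over to the real data.

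Lines pair the groups by origin. Deviations from group means correlated by 0.0921, 0.0946 and 0.08 for the same line and by -0.121 to 0.0553 otherwise.

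The 9 genes, the gene lists and the motifs were chosen with earlier results of these data known. Named genes are the 9, listed complement genes, factors and nearest neighbours that were tested, and the genes nearest in pattern. The values of 1 tested factor are not reported here. Alternatives were the block, pseudocount, filter, scaling, trend, voom and leaving out each library.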

Additional observations from a re-analysis of the deposited data

How the results depend on the processing

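Of 135 recomputed log2 fold changes of the 9 genes, 121 stayed within the spread between lines, 14 moved further and 0 reversed. Their median of -2.77 became -3.39 with a pseudocount of 0.1, -3.31 with equal sums and -3.64 with voom (-2.91 to -2.62 without single libraries). The number at least 2-fold higher in each line was 1 to 2 without single lines, 2 without line 5, where *SERPING1* joined *CD55*. The summed activating genes differed by -4.65 (log2 ratio of group means), -4.90 with the median ratio, -4.97 with equal sums and -4.81 to -4.38 without single libraries, alternatives chosen after seeing the data. For the inhibitors the ratio was 0.01, and -0.25 and -0.32 under those scalings.

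The other complement genes counted 2 higher, with 1 under no filter and 1 under equal sums, and 1 to 3 without single libraries. The lower count of 8 was 5 to 7, with 5 without piPSC5. *C1RL* was lost without PEF7 or piPSC5, *C5AR2* without PEF5 or any 1 piPSC library, *C1QBP* without any 1 piPSC library, and *C2* without PEF5 or any 1 piPSC library. Without PEF8, *C2* was under the filter on low values and was not tested. The lower factors counted 3, and 4 with the median ratio and 4 with equal sums. The lower neighbours counted 3, and 5 with the median ratio, 5 with equal sums and 1 to 2 without single libraries (1 without piPSC5). *NELFE* (-0.10) was 0.03 without PEF7 and 0.06 without piPSC8, within -0.30 to 0.06. *MED16* (0.04) was -0.07 with quantile normalization, -0.18 with the median ratio, -0.26 with equal sums, -0.03 without PEF7 and -0.09 without piPSC8, within -0.09 to 0.20. The cause was not tested.

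With the line as a replicate block, all genes gave 2462 higher and 2023 lower, against 2505 and 2070, and the other complement genes 3 higher and 7 lower. Among the tested complement genes, factors and neighbours the block changed the calls of *CFI* and *C2* and no other. The calls over all genes were 54.8% higher, 42.8% (1879 against 2511) with the median ratio and 41.4% (1986 against 2815) with equal sums. Depth limits *MASP1* in piPSC7 and piPSC8, at 2 and 3 fragments.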
